A study of Mus musculus with 3 samples.

Results

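Multinucleated giant cells form when macrophages fuse, and the osteoclast of bone is the best known cell made in this way. The 10 genes described here, Gpnmb, Trem2, Tyrobp, Dcstamp, Ocstamp, Acp5, Chit1, Spp1, Itgb3 and Nfatc1, were chosen by name for their part in macrophage fusion, multinucleation and the osteoclast programme, and were found by symbol among the 53342 genes of the counts table. The label is a gene set and not a cell type. No cell of this kind was counted in these whole-lung libraries.

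The lungs came from 3 male C57Bl/6 mice in 1 labelled group, called mouse 4, 5 and 6 after the last digit of each label. Each mouse had been given Mycobacterium abscessus microparticles into the trachea (50 µL, matched to 1000000 bacteria) to bring on granulomas, in a study of sarcoidosis, and MIA-602, which blocks the receptor of growth hormone-releasing hormone, at 5 µg a day under the skin over 3 weeks. The particles and the drug were common to all 3 mice and no other group was analysed here, so the values describe levels and their spread between mice and no effect of either agent. Their ages are not stated in the labels. Library totals ran from 31579465 to 43845715 counts. Levels are in CPM (counts per 1000000 counts of a library, scaled with TMM factors), and values for mice 4, 5 and 6 are given in that order. The alveolar markers Sftpc and Ager averaged 17704 and 1969 CPM. Skeletal muscle markers were also present and highest in mouse 4, with summed levels of 4739, 1744 and 1495 CPM.

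In the macrophage fusion pathway, M-CSF and RANK ligand act on precursors through the receptors Csf1r and RANK, while a second signal passes from receptors such as TREM2 through adaptors that carry an activation motif (ITAM), of which Tyrobp (DAP12) is one. Calcium then activates NFATc1 through calcineurin. NFATc1 drives the fusion proteins DC-STAMP and OC-STAMP, the phosphatase TRAP (Acp5) and the integrin subunit beta 3. Langhans giant cells of granulomas share much of this programme, although they do not resorb bone.

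Sequences near the starts of 4 of the genes are shown because motifs of the osteoclast transcription factors MITF, AP-1 and PU.1 can be read in them, and because Gpnmb, Acp5 and Chit1 were highest in the same mouse while Spp1 was not. They are the 4 windows that held a match. The reference windows are RefSeq's on build GRCm38.p6, 250 bases before to 50 after a start, and 5 of the 10 members had a window (Gpnmb, Trem2, Acp5, Chit1 and Spp1, 8 windows in all). The motifs searched on both strands were TCATGTG (M-box of MITF and TFE factors), CACGTG (their E-box), TGACTCA (AP-1) and GAGGAAGT (PU.1). Each line runs 5′ to 3′ on the gene's strand, with the match in capitals. For Acp5 at chr9:22130599-22130848 (minus strand), Chit1 at chr1:134110992-134111241 (plus strand) and Spp1 at chr5:104434861-104435110 (plus strand) the 250 bases before the start are given, and for Gpnmb at chr6:49036515-49036544 (plus strand) the 30 bases around a match just past the start.
Acp5: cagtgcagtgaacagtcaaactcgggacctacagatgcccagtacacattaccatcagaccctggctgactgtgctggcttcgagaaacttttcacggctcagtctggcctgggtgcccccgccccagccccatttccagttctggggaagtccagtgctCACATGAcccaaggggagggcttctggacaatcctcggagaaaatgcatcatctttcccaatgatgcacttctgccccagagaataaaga
Chit1: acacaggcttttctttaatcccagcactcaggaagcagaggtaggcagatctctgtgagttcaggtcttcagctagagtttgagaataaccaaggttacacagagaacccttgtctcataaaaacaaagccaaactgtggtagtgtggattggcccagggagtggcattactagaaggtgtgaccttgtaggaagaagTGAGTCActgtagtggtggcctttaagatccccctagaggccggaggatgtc
Spp1: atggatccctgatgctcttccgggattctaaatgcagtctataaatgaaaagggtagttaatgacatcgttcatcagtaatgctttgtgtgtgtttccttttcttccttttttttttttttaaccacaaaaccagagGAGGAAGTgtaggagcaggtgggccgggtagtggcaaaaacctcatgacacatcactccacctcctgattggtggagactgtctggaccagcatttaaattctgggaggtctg
Gpnmb: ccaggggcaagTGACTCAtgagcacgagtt
The Acp5 window held the M-box on the other strand, 90 to 84 bases before the start, and 3.77% of all 32851 windows held an M-box. The Chit1 window held the AP-1 motif on the other strand 52 to 46 bases before the start, and Gpnmb held it 9 to 15 bases after the start, against 5.2% of all windows. These starts are RefSeq's, and the GENCODE start of Gpnmb given below, 49036546, lies past the stretch shown. The Spp1 window held the PU.1 motif 113 to 106 bases before the start, against 3.2% of all windows. No window of the 5 members held CACGTG, which was in 7.15% of all windows, and the Trem2 window, the other 2 of Acp5 and the other of Spp1 held none of the motifs. The share of all windows that held any of these motifs was not computed. These matches are descriptions of sequence and show no binding. A link between a motif and the mouse in which a gene was highest was not tested.

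All members but Ocstamp and Chit1 reached 1 CPM in every lung (8 of 10, against 28.5% of all genes in the table and 86.2% of the 17636 genes that passed edgeR's filter on low counts). All 10 passed that filter. The median member stood at 92.3, 62.0 and 71.8 CPM in mice 4, 5 and 6. Per kilobase of exon, on the log2(CPM per kilobase + 0.5) scale, the median member level exceeded that of all genes tested by 1.37 ± 0.28 (SD, n = 3).

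**Figure D1:**
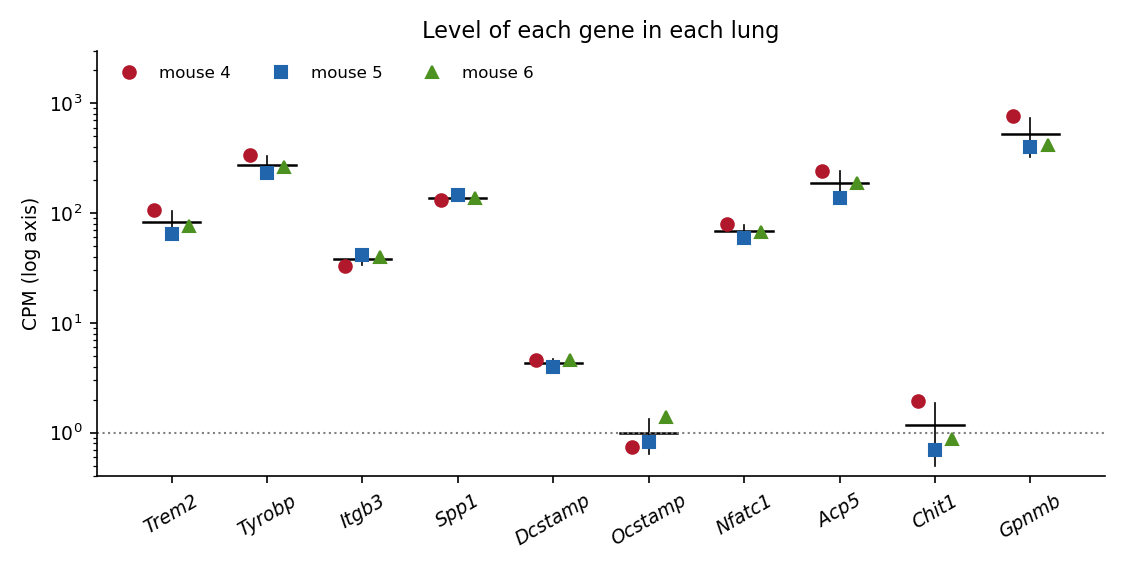
CPM of each of the 10 genes in each lung on a log axis; points are mice, the horizontal bar is the mean and the vertical line ± 1 SD (n = 3). Gpnmb, Trem2, Tyrobp, Acp5, Chit1 and Nfatc1 were highest in mouse 4, while Spp1 and Dcstamp lay close together in all mice and Ocstamp and Chit1 lay around 1 CPM, marked by the dotted line.

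The receptor and its adaptor were both expressed, the adaptor at the higher CPM. Trem2 (ENSMUSG00000023992, chromosome 17, 48346401 to 48354147), a lipid receptor of tissue macrophages and osteoclast precursors, stood at 106, 64.3 and 76.0 CPM. Tyrobp (ENSMUSG00000030579, chromosome 7, 30413760 to 30417585), the adaptor through which TREM2 signals, stood at 338, 230 and 262 CPM. Both were highest in mouse 4 and lowest in mouse 5. Per kilobase of exon the Trem2 level was 0.0423, 0.0377 and 0.0392 of the Tyrobp level, a ratio that varied by 1.12-fold between mice, whereas each gene alone varied by 1.65-fold and 1.47-fold. The lengths merge all annotated exons, 4946 bases for Trem2 and 667 for Tyrobp, so the size of this ratio depends on the annotation. Over the other pairs of genes set as ratios, the fold between mice ran from 1.12 for Trem2 over Csf1r to 2.09 for Spp1 over Gpnmb. Many other receptors also use Tyrobp, so its level is not that of TREM2's own partner molecules. Fcer1g, the other ITAM adaptor of this pathway, stood at 639, 384 and 508 CPM, and per kilobase the Tyrobp level was 0.693, 0.783 and 0.675 of it.

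The integrin subunit and its ligand were both highest in mouse 5 and lowest in mouse 4, another order than that of the receptor pair. Itgb3 (ENSMUSG00000020689, chromosome 11, 104608000 to 104670476), the beta 3 subunit that pairs with alpha V in osteoclasts and with alpha IIb in platelets, stood at 33.2, 41.8 and 39.4 CPM. Spp1 (ENSMUSG00000029304, chromosome 5, 104435118 to 104441050), osteopontin, which that integrin binds, stood at 132, 145 and 137 CPM. Its highest and lowest mice differed by 1.10-fold, the least of the 10 genes. Both subunits that pair with beta 3 were present. Itgav stood at 59.1, 56.1 and 50.9 CPM, and Itga2b of platelets at 9.22, 18.9 and 11.9 CPM. Itgb3 per kilobase was 1.02, 1.36 and 1.41 times Itgav and 3.33, 2.04 and 3.06 times Itga2b. All 6 platelet and megakaryocyte markers were highest in mouse 5, as Itgb3 was, with summed levels of 26.1, 52.5 and 32.2 CPM. The same held for 5 of 5 endothelial, 5 of 5 alveolar type 2 and 5 of 6 club and ciliated markers. That order was thus not particular to platelets, and the part of any of these cell types in the Itgb3 level was not tested. The Itgb3 ratio of mouse 5 to mouse 6 was 1.06, and its interval for counting error, 0.985 to 1.146, included equality. Cd44, another osteopontin receptor, stood at 339, 266 and 303 CPM.

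Both fusion proteins were among the 3 members with the lowest levels, with Chit1. Dcstamp (ENSMUSG00000022303, chromosome 15, 39745930 to 39760938), the membrane protein without which osteoclasts and foreign-body giant cells of mice stay mononuclear, had 196, 143 and 145 counts, or 4.55, 3.95 and 4.57 CPM. Ocstamp (ENSMUSG00000027670, chromosome 2, 165393760 to 165400405), its relative in the same process, had 32, 30 and 44 counts, or 0.743, 0.830 and 1.39 CPM. Over the summed libraries, as counts over library totals with no TMM scaling, these came to 4.36 CPM (3.98 to 4.76) and 0.954 CPM (0.781 to 1.15), with exact 95% Poisson intervals that cover counting error only. Dcstamp was nearly level across mice and Ocstamp was highest in mouse 6, 1.87-fold above mouse 4. For that pair of libraries the ratio of mouse 4 to mouse 6 was 0.535 with a counting interval of 0.329 to 0.864. Per kilobase the Dcstamp level was 8.41, 6.54 and 4.52 times that of Ocstamp.

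Nfatc1 (ENSMUSG00000033016, chromosome 18, 80606205 to 80713071), the transcription factor at the head of the osteoclast programme, stood at 78.6, 59.7 and 67.6 CPM. Lymphocytes and endothelium also make it. The highest mouse was again mouse 4 and the lowest mouse 5, and they differed by 1.32-fold. T and B lymphocyte markers had another order, with summed levels of 473, 343 and 535 CPM and 7 of 8 highest in mouse 6. Endothelial markers differed from both, with summed levels of 1140, 1621 and 1193 CPM and 5 of 5 highest in mouse 5. The part of either cell type in the Nfatc1 level was not tested.

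Gpnmb and the enzymes Acp5 and Chit1 were all highest in mouse 4 and lowest in mouse 5. Gpnmb (ENSMUSG00000029816, chromosome 6, 49036546 to 49070929), a membrane glycoprotein of lipid-laden macrophages and osteoclasts, had the highest CPM of the 10 at 759, 398 and 420. Acp5 (ENSMUSG00000001348, chromosome 9, 22126727 to 22135711), the tartrate-resistant acid phosphatase TRAP by which osteoclasts are stained, stood at 242, 137 and 186 CPM. Mouse 4 stood above the other mice for both, and mice 5 and 6 were closer to each other for Gpnmb than for Acp5. Chit1 (ENSMUSG00000026450, chromosome 1, 134111242 to 134151540), the chitotriosidase measured in human sarcoidosis as a marker of macrophage activation, had only 84, 25 and 28 counts, or 1.95, 0.691 and 0.883 CPM. Its ratio of mouse 4 to mouse 5 was 2.82 (counting interval 1.79 to 4.602) and of mouse 4 to mouse 6 it was 2.21 (1.42 to 3.52). The interval between mice 5 and 6 included equality (ratio 0.783, 0.438 to 1.39).

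In order of level per kilobase of exon, Tyrobp came first at 414 ± 83.2 CPM per kilobase (SD, n = 3). Acp5 at 92.8 ± 25.7, Spp1 at 83.6 ± 3.87 and Gpnmb at 80.7 ± 31.1 followed and did not differ beyond their spread. Then came Trem2 at 16.6 ± 4.35, Nfatc1 at 9.19 ± 1.27, Itgb3 at 6.46 ± 0.753, Dcstamp at 1.64 ± 0.132, Chit1 at 0.647 ± 0.374 and Ocstamp at 0.270 ± 0.0957 CPM per kilobase. Neighbours were taken as different where the log2 difference had 1 sign in 3 of 3 mice and its mean exceeded its SD. By that rule 6 of the 9 neighbouring pairs differed, and Acp5 and Spp1, Spp1 and Gpnmb, and Chit1 and Ocstamp did not. The exact two-sided sign-flip test cannot go below p = 0.25 with 3 mice, so that test could pass for no pair. Lengths merged all annotated exons, whether or not they are used in lung, so the order also depends on the annotation.

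Mouse 4 stood apart for a share of the set. Of the 10 genes, 6 (Gpnmb, Trem2, Tyrobp, Acp5, Chit1 and Nfatc1) were highest in mouse 4, against 33.4% of all genes tested, and the same 6 were lowest in mouse 5, a combination seen in 19.7% of all genes tested. Itgb3 and Spp1 were highest in mouse 5 and Dcstamp and Ocstamp in mouse 6, against 36.4% and 30.2% of all genes tested. With Dcstamp, 7 of the 10 were lowest in mouse 5, against 36.8% of all genes tested. Spp1, Itgb3 and Ocstamp were lowest in mouse 4, against 33.3%, and 0 of the 10 in mouse 6, against 29.9%. Highest and lowest mice differed by more than 1.5-fold for 5 genes (Chit1, Gpnmb, Ocstamp, Acp5 and Trem2), against 22.9% of all genes tested. With mouse 4 left out the count fell to 1, Ocstamp, against 9.96% of all genes tested, and with mouse 5 left out it was 3, against 10.8%. More than 2-fold differences were found for Chit1 alone, against 7.18% of all genes tested. Between mouse 4 and mouse 5, 4 of the 10 were more than 1.5-fold higher in mouse 4, where 8.2% of all genes tested were, and 0 were more than 1.5-fold lower, where 7.61% were (15.8% either way). Between mouse 4 and mouse 6, Gpnmb and Chit1 were more than 1.5-fold higher in mouse 4, where 5.3% of all genes tested were, and Ocstamp was lower, where 5.48% were. Between mouse 5 and mouse 6, 0 of the 10 were more than 1.5-fold higher in mouse 5, where 4.46% of all genes tested were, and Ocstamp was lower, where 5.5% were. Gpnmb was 1.91-fold higher in mouse 4 than in mouse 5, a ratio that 3.42% of all genes tested reached, and Chit1's ratio was reached by 0.578%.

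**Figure D2:**
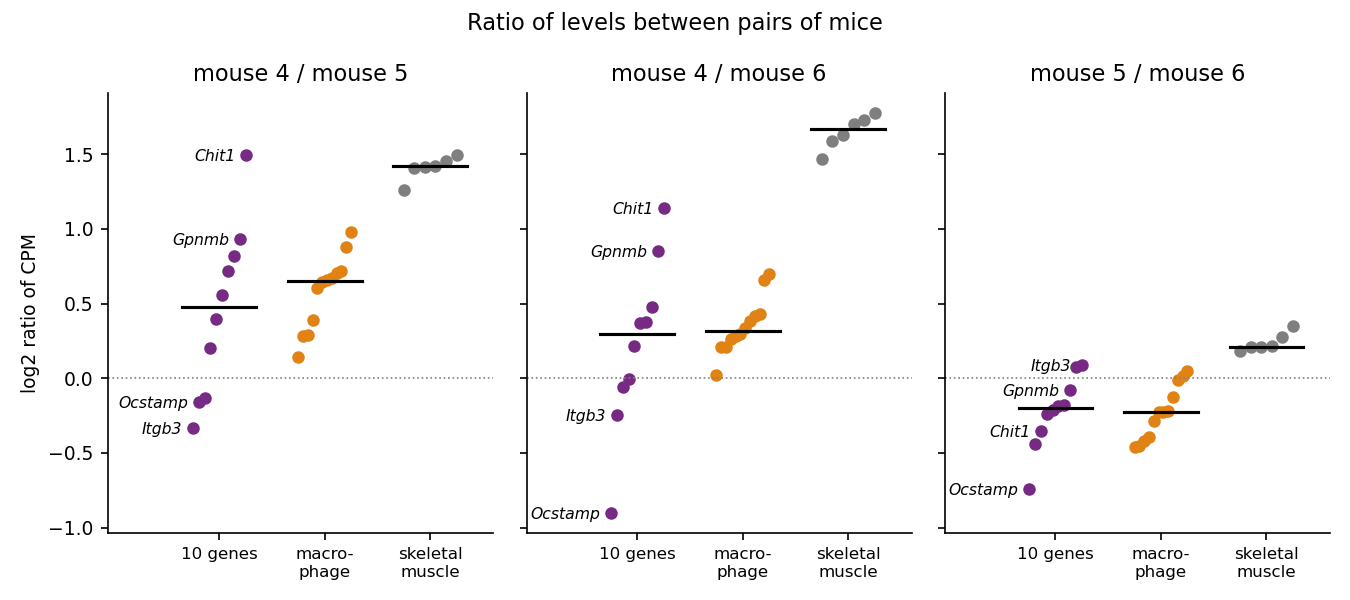
Log2 ratio of CPM for each pair of mice; each point is a gene and the bar is the median of its list. The 10 genes ran from -0.33 to 1.496 between mice 4 and 5 and from -0.90 to 1.14 between mice 4 and 6, and the 12 macrophage markers from 0.14 to 0.98 and from 0.02 to 0.70; the skeletal muscle markers lay above the macrophage markers in all 3 panels.

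No member's spread between mice passed the test across all genes. An intercept-only quasi-likelihood model in edgeR compared the residual dispersion of each gene to the trend at its level, and 0 of 17636 genes and 0 of the 10 passed at an adjusted p of 0.05 (0.0% of all genes tested). At an unadjusted p under 0.05 there were 867 genes, or 4.92%, and 3 of the 10. The smallest adjusted p of any gene in this edgeR fit was 0.806. The trend and the variation around it were estimated from these same genes in 3 mice. The lack of passes therefore does not show that the spreads were alike. The spread of Gpnmb was 3.53 above the trend on the log2 scale, that of Trem2 3.22 and that of Acp5 3.17, and for each of them edgeR's adjusted p was 0.955. Of all genes tested, 2.13%, 3.14% and 3.36% had as small a p as Gpnmb, Trem2 and Acp5. Chit1 (log2 2.49) and Tyrobp (1.99) also lay above the trend, and Dcstamp and Spp1 lay below it, at -2.21 and -1.91. Limma called 0 genes (868 genes and 3 of the 10 at an unadjusted p under 0.05) and DESeq2's dispersion outlier rule 102, none of them among the 10. Without a filter on low counts edgeR called 629 of 30751 genes (2.05%), and among them Gpnmb (adjusted p = 0.00286), Acp5 (0.0350) and Trem2 (0.0379). In that fit edgeR's prior degrees of freedom were infinite, against 3.88 with the filter. Its test then allowed for no variation of genes around the trend, so these calls depend on the filter.

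**Figure D3:**
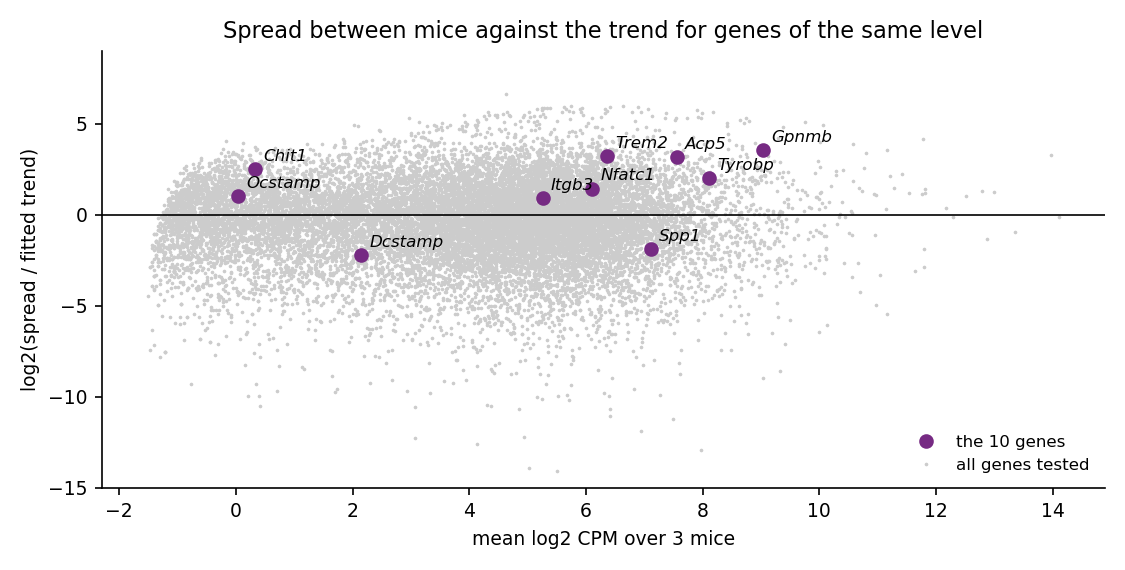
Log2 ratio of each gene's residual spread between mice to the fitted trend (y axis) against its mean log2 CPM (x axis) for 17636 genes in grey, with the 10 genes in purple. Gpnmb, Trem2 and Acp5 lay highest of the 10, at 3.53, 3.22 and 3.17, and Dcstamp and Spp1 lay under the line of the trend.

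Macrophage transcripts were also highest in mouse 4. All 12 macrophage and monocyte markers were (Cd68, for example, at 488, 247 and 300.5 CPM), with summed levels of 14780, 11556 and 11943 CPM. Lyz2 alone made up most of each sum, at 11888, 9790 and 9687 CPM. The median marker was 1.57-fold higher in mouse 4 than in mouse 5. In a whole-lung library more macrophages and more RNA per macrophage cannot be told apart, and the part of macrophage content in the levels of the 10 genes was not tested. Set against the median macrophage marker within each mouse, Trem2 lay at -0.78, -0.73 and -0.72 on the log2(CPM + 0.5) scale, so that its range between mice shrank to 0.06, against 0.72 for its own level. The range shrank likewise to 0.31 from 0.93 for Gpnmb, to 0.21 from 0.81 for Acp5, to 0.29 from 1.04 for Chit1 and to 0.21 from 0.55 for Tyrobp. It widened for Itgb3 (1.09 against 0.33), Spp1 (0.90 against 0.13), Dcstamp (0.58 against 0.19) and Ocstamp (1.14 against 0.60). In all it was smaller for 6 of the 10, against 10.7% of all genes tested. These were the same 6 genes that were highest in mouse 4 and lowest in mouse 5, as the median marker was. This count is therefore not independent of that order. For the sixth, Nfatc1, the range was 0.37, against 0.39 for its own level, so that it hardly shrank. Chit1 and Ocstamp lay near the pseudocount of 0.5 CPM, which narrows their ranges. Without it the log2 ratio of mouse 4 to mouse 5 was 1.496 for Chit1, and ranges against the markers were not computed without it. The median member lay 0.86 ± 0.12 below the median marker (log2 CPM, SD, n = 3), a difference of -1.87 per kilobase of exon and of -2.31 between list means. Per kilobase, Gpnmb was 0.300, 0.311 and 0.270 of Cd68 and Trem2 was 0.385, 0.345 and 0.375 of Csf1r.

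Alveolar macrophage markers had no such order. Only 1 of 8 was highest in mouse 4, with 3 highest in mouse 5 and 4 in mouse 6. The markers went different ways, and 3 of 8 were higher in mouse 4 than in mouse 5. Their summed levels were 656, 770 and 748 CPM. Chil3 made up most of each sum, at 352, 430 and 399 CPM, and Car4 stood at 63.5, 130 and 89.8 CPM. Skeletal muscle and squamous epithelium markers were highest in mouse 4 in 6 of 6 and 4 of 4 cases, by medians of 2.67-fold and 2.74-fold over mouse 5, and their part in the levels of the 10 genes was not tested. Defining markers of bone-forming cells were at or near 0. Sp7 had 2, 0 and 0 counts, Ibsp 0, 2 and 0, Bglap 2, 1 and 1, and Bglap2 and Mepe 0 in every library, so 5 of 9 osteoblast markers had 3 counts or fewer in each, and Dmp1 had 5, 1 and 2. A count of 0 allows up to 0.0696, 0.0830 and 0.0946 CPM (3 counts each). Bglap and Bglap2 are near-identical, so their reads may be shared. The other 3, Runx2, Alpl and Phex, which other cells also make, had 4 CPM or more. Of 6 cartilage markers, 0 reached 1 CPM in every mouse. Acan had 0 counts in every library, while Sox9 had 42, 21 and 40 and Comp 27, 13 and 22, and both passed the filter.

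The rest of the fusion and osteoclast pathway was largely expressed. Of 73 pathway genes, 67 reached 1 CPM in every mouse (against 28.5% of all genes in the table), and the other 6 were Il4, Il13, Oscar, Siglec15, Calcr and Lhx2. Of the 67 tested, 52 were highest in mouse 4, against 33.4% of all genes tested, and 9 differed by more than 1.5-fold between mice, against 22.9% of all genes tested. None of the 67 passed the spread test, as no gene did.

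**Figure D4:**
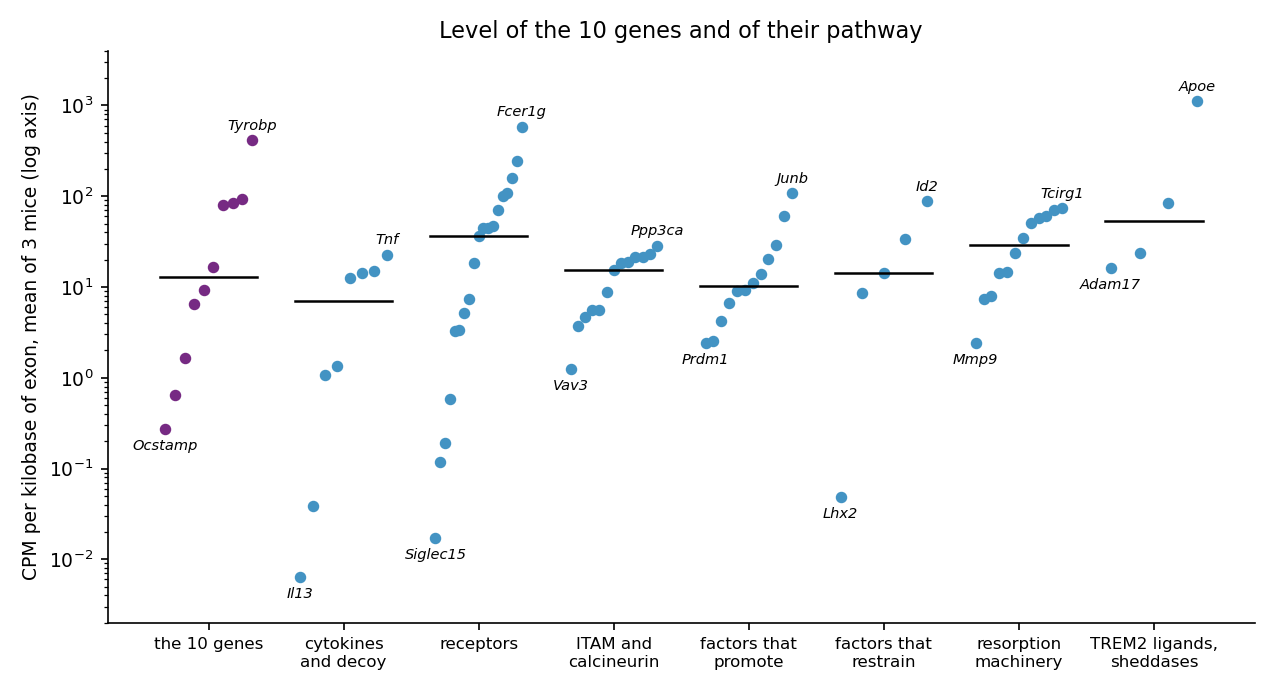
CPM per kilobase of exon, as the mean of 3 mice on a log axis, for the 10 genes and for 7 lists of pathway genes; each point is a gene, the bar is the list median, and the lowest and highest gene of each list are named. The 10 genes ran from Ocstamp at 0.270 to Tyrobp at 414, while Siglec15, Il13 and Lhx2 mark the low end of their lists.

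Cytokines upstream were uneven. Csf1 (M-CSF), the growth factor of the lineage, stood at 79.8, 69.8 and 76.1 CPM, and Il34, the other ligand of its receptor, at 23.5, 23.3 and 27.6 CPM. Tnfsf11, the RANK ligand, had 148, 93 and 99 counts and its decoy Tnfrsf11b (osteoprotegerin) 134, 110 and 96, so that per kilobase the ligand was 1.39, 1.07 and 1.30 times the decoy. Il4 and Il13, which induce macrophage fusion in culture, had 5, 1 and 0 and 1, 0 and 0 counts. Tnf stood at 43.0, 27.0 and 41.4 CPM. Ccl2, a chemokine that aids fusion, stood at 19.3, 13.7 and 18.1 CPM.

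The receptors of the list covered a wide range of levels. Csf1r stood at 322, 218 and 237 CPM and Tnfrsf11a (RANK) at 20.4, 17.1 and 20.9. Sirpa and its partner Cd47, a pair that takes part in macrophage fusion, stood at 571, 389 and 519 and at 281, 306 and 288 CPM. The tetraspanins Cd9 and Cd81, which in mice hold fusion back, stood at 520.4, 519.9 and 451 and at 325, 327 and 289 CPM. Against these, Oscar had 8, 18 and 12 counts, the calcitonin receptor Calcr 9, 28 and 13, and Siglec15 0, 1 and 1. Oscar and Calcr were lowest in mouse 4, where most of the 10 genes were highest, but neither passed the filter on low counts. Their counting intervals for mouse 4 to mouse 5 lay below equality (Oscar 0.140 to 0.902, Calcr 0.112 to 0.588). Those for mouse 4 to mouse 6 included it (0.174 to 1.31 and 0.192 to 1.29).

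All signalling genes and transcription factors of the lists but Lhx2 reached 1 CPM in every mouse. The kinase Syk, which binds ITAM adaptors, stood at 238, 163 and 196 CPM, its substrate Plcg2 at 77.4, 51.9 and 69.3, and the calcineurin subunit Ppp3ca at 271, 329 and 257. Spi1 (PU.1), the macrophage master factor, stood at 202, 125 and 158 CPM and Mitf at 32.7, 22.7 and 22.2. Mitf was highest in mouse 4, as Gpnmb, one of its known targets, was, but so were 52 of the 67 pathway genes tested. Mitf was lowest in mouse 6 and Gpnmb in mouse 5, and a link between them was not tested. Per kilobase Gpnmb was 22.1, 16.7 and 17.96 times Mitf. Tfe3 stood at 87.0, 78.6 and 92.7 CPM. Factors that restrain osteoclasts were present too, with Irf8 at 266, 189 and 260 CPM and Bcl6 at 66.9, 49.6 and 55.6. Nfatc1 per kilobase was 0.279, 0.298 and 0.246 of Irf8.

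Machinery for acid and matrix breakdown reached 1 CPM in every mouse in 12 of 12 cases, near the 86.2% of all genes tested that did, and 11 of 12 were highest in mouse 4, against 33.4% of all genes tested. Ctsk, the collagenase of osteoclasts, stood at 133, 94.7 and 94.0 CPM, and per kilobase Acp5 was 1.35, 1.08 and 1.47 times it. Atp6v0d2, the proton pump subunit that also takes part in fusion, stood at 152, 127 and 130.1 CPM, and Tcirg1, the pump's a3 subunit, at 392, 266 and 356. Of these 12, 3 differed by more than 1.5-fold between mice, near the 22.9% of all genes tested that did. The chloride transporter Clcn7 and the membrane protease Mmp14 stood at 236, 145 and 173 and at 437, 272 and 326 CPM. Mmp9, the gelatinase of osteoclasts and neutrophils and the third of them, stood at 10.1, 8.93 and 6.69 CPM. Of the TREM2 ligands, Apoe stood at 3155, 1859 and 2124 CPM, and Adam10 and Adam17, the proteases that shed TREM2, lay between 103 and 138 CPM.

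Reads of overlapping genes could touch 2 members. Exons of Acp5 share 137 bases with 6530413G14Rik on the other strand, which had 18, 18 and 13 counts, and exons of Spp1 share 309 bases with Gm42793, which had 4, 3 and 2. The other 8 shared no exon base with another annotated gene.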

How the data were processed

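The authors deposited raw counts, 1 column a mouse, keyed by Ensembl gene and not normalized. Per the submitters' processing notes, bcl2fastq 2.17, Trim Galore 0.6.2, STAR 2.5.2a and build mm10 were used. How reads were counted (tool, annotation, strand) is not stated there. Library preparation used a Nugen Universal mRNA kit, per the labels' protocols. Symbols, coordinates (1-based) and exon lengths came from GENCODE M21 of the same build, which matched 99.803% of identifiers.

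CPM used TMM factors over the 17636 genes past filterByExpr, and log2 values a pseudocount of 0.5 CPM. Spread was tested in edgeR 4.0.16 (R 4.3.3, legacy robust quasi-likelihood fit, upper-tail F, prior degrees of freedom 3.88, Benjamini-Hochberg adjustment over all genes tested). Scripts were tested on simulated data. Limma 3.58.1 and DESeq2 1.42.0 were alternatives, with other scaling, filters, pseudocounts, lengths and each mouse left out. Levels and intervals came from Python 3.11.15 with scipy 1.17.1, pandas 2.3.3 and numpy 2.4.6. The study's design text counts 3 mice, so the samples are separate animals. The labels name no molecular identifiers, and intervals cover counting error only. Promoter windows came from RefSeq on GRCm38.p6.

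The members, the 7 pathway lists and the marker lists were chosen with earlier results of these data known. Named are the 10 members, any pathway gene, the 3 most abundant of each marker list and markers at 3 counts or fewer in every library. Cd68 and Dmp1 lie outside that rule and were named after their values were seen. The pairs of genes set as ratios, the comparison with macrophage markers gene by gene and the promoter motifs were also chosen after values were seen.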

Additional observations from a re-analysis of the deposited data

How the results depend on the processing

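Over 19 results and 127 alternative values, 114 stayed within the spread between mice or within 1.5 times the count. Genes with spread above the trend numbered 0 in the edgeR fit, 629 without the filter on low counts and 102 under DESeq2's dispersion outlier rule, and ranged from 0 to 13 with each mouse left out, the 13 without mouse 4. Among the 10 genes the count was 0, and 3 without the filter, a fit in which the prior degrees of freedom were infinite. The count of genes differing by more than 1.5-fold between mice was 5, 1 at more than 2-fold, and ranged from 1 without mouse 4 to 4 without mouse 6. The median member lay 0.86 below the median macrophage marker on the log2 scale, a difference of -1.87 per kilobase of exon and -2.31 with list means. Where a value moved, the cause was not tested, apart from the stricter fold and the fewer mice compared. The other 4 that moved were mean log2 levels of Dcstamp and Ocstamp at pseudocounts of 1 and 0.1 CPM (Dcstamp 2.42 and 2.15 against 2.28, Ocstamp 0.98 and 0.07 against 0.55). The alternatives for the order of levels were added after the data were seen, and 6 to 8 of 9 neighbouring pairs then differed. No value changed sign. No paired analysis was possible because all 3 mice form 1 group. With 3 mice no sample could be tested as an outlier. Ocstamp and Chit1, with 25 to 84 counts a library, are limited by depth.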
